A study of Mus musculus with 4 samples.

Results

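The genes of the DNA methylation machinery studied here are 7 mouse genes that copy, write, protect or remove methyl groups on CpG sites: Dnmt1, Uhrf1, Dnmt3a, Dnmt3b, Dnmt3l, Zfp57 and Tet1. They were chosen by name, each as a fixed interval of the mouse build mm9 that holds the gene and its flanks, with no use of measured values. Of 2797 cytosines listed in the 7 intervals, 1543 had at least 5 calls in every library and were kept, out of 2468166 such cytosines in the whole genome. They were read singly and in 75 of the 155252 genome windows of 1 kb that held at least 3 kept cytosines. Methylation of these genes' own DNA was measured. Their expression was not, and so the embryonic stem (ES) cell label could not be checked against marker genes.

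The data are reduced representation bisulfite sequencing (RRBS) of genomic DNA from mouse ES cells, 2 libraries of WT cells and 2 of Naa10-KO cells. In RRBS, DNA is cut at CCGG by the enzyme MspI, so that CpG-rich stretches are read at depth. Naa10 is the catalytic subunit of an N-terminal acetyltransferase, and the series title names its role in DNA methylation and imprinting as the question. Both genotypes were grown in N2B27 medium with LIF, a Mek inhibitor and a Gsk3 inhibitor on irradiated mouse feeder cells, and then for 5 passages without feeders. The sources used here do not say how the KO was made, nor that the 2 libraries of each genotype are independent cultures or clones. The spread behind every p-value is that of these libraries and could be technical. The libraries held 68548142 to 79496304 calls, with a median depth of 21 to 25 calls per kept cytosine. Over all kept cytosines the mean level was 33.0% in both WT libraries, 11.4% in KO replicate 1 and 7.69% in KO replicate 2.

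Dnmt1 copies methylation onto the new DNA strand after replication, and Uhrf1 recognises the hemimethylated DNA and brings Dnmt1 to it. Dnmt3a and Dnmt3b place methylation on unmethylated DNA, with Dnmt3l, which has no catalytic activity of its own, as a cofactor in germ cells and ES cells. Zfp57 is a zinc finger protein that binds the methylated copy of imprinting control regions and protects it, and Tet1 oxidises methylated cytosine on the way to its removal. CpG-dense promoters are as a rule unmethylated in mammalian cells, while gene bodies are as a rule methylated.

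The promoters of these genes differ in CpG content, and the sequences show it. The RefSeq promoter table (GRCm38.p6) holds 300 bases per start site, 250 before and 50 after it. It gave 16 starts for the 7 genes. A promoter was placed on mm9 where the spacing of its CpGs matched the kept cytosine positions at 1 place only, with a looser rule for the internal Dnmt3a start. This placed 7 promoters of 5 genes, with 17 to 47 CpGs each. The median was 27 CpGs over all 8058 placed promoters and 7 over all 32851 promoters of the table. Since a placement needs at least 10 matched cytosines, placed promoters are CpG-rich by selection. In the lines that follow, each sequence runs 5′ to 3′ on the strand of its gene, and capitals mark the CpG sites.
Dnmt1: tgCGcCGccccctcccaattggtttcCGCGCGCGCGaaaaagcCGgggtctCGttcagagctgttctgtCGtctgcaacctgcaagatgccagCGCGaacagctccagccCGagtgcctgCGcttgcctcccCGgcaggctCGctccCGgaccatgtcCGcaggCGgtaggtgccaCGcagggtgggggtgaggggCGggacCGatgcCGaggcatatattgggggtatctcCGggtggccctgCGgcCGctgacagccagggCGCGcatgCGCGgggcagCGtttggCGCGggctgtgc
Uhrf1: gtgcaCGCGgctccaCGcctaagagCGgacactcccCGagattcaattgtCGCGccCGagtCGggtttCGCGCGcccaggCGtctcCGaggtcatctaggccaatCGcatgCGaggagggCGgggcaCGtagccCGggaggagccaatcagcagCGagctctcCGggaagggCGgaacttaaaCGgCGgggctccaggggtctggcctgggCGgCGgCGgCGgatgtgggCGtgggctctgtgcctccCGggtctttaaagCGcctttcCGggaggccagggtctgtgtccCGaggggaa
Dnmt3a, first cluster of starts: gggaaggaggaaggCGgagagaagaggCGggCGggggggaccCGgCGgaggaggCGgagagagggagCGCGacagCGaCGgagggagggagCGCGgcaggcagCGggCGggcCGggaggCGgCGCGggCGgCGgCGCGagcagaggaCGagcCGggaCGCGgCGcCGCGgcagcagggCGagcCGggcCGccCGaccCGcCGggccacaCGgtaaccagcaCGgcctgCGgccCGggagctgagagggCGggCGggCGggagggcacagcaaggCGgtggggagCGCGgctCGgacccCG
Dnmt3a, internal start: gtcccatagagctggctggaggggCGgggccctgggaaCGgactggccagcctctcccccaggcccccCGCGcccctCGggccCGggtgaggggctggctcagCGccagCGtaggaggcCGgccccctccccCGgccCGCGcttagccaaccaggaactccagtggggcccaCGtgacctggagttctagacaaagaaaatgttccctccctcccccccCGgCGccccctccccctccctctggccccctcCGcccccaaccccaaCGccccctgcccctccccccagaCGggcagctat
Dnmt3b: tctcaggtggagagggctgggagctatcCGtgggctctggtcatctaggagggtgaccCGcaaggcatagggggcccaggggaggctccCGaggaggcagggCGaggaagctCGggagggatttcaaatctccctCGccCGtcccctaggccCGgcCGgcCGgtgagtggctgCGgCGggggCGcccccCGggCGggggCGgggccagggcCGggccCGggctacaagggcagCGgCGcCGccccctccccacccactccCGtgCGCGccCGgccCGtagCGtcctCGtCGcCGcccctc
Tet1: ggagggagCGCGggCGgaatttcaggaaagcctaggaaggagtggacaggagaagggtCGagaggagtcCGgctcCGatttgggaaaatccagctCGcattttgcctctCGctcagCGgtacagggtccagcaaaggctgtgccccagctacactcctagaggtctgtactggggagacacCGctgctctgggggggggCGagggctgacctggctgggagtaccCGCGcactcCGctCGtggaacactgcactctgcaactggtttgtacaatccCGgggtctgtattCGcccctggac
Dnmt3l, first start: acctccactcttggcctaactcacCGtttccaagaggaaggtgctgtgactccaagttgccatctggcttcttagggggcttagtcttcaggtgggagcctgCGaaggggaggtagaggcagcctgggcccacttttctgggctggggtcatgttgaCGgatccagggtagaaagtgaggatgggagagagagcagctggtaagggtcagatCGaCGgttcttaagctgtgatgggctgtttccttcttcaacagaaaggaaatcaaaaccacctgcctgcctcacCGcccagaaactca
Zfp57, first start: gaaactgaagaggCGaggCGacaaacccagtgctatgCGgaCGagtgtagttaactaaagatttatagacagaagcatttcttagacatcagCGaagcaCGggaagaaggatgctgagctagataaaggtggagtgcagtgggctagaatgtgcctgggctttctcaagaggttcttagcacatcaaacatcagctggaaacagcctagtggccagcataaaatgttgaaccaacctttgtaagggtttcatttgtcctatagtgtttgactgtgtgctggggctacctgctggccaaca
The Dnmt3l and Zfp57 sequences are shown for contrast, since each holds only 6 CpGs and no CCGG, the MspI site. None of the 3 Dnmt3l starts and 3 Zfp57 starts, with 3 to 9 CpGs each, could be placed, nor could 2 further starts of Dnmt1 and 1 of Uhrf1, with 2 to 12 CpGs. Levels at the unplaced starts were not read, so the promoter results cover only the placed, CpG-rich starts. CCGG, which reads the same on both strands, occurs in 52.8% of all promoters of the table. The first 6 sequences hold it 2 to 7 times. Among the unplaced starts, the Uhrf1 start holds it 2 times and 1 Zfp57 start 1 time. No match means only that these letters are not in this window.

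The 7 placed promoters were almost free of methylation in both genotypes. None passed the test in either direction, in a genome where 3.04% of 8058 placed promoters were lower in KO and 0% were higher. A promoter counted as changed if the quasi-likelihood test of edgeR gave an adjusted p below 0.05 and the group means differed by at least 10 percentage points. With WT means of 0.165 to 0.907%, these promoters had no room for a fall of that size, so the absence of lower calls was fixed by their WT level. With no minimum difference edgeR still called 0 of the 7 in either direction, against 6.5% of all placed promoters lower and 0.0496% higher. At an unadjusted p under 0.05, edgeR called 0 of the 7 and limma on logit levels 1, with none left after adjustment by limma. Levels of a promoter or window are methylated calls over all calls in it.

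Of the maintenance genes, the Dnmt1 promoter (chr9:20757018-20757317, minus strand, 47 kept cytosines on the 33 CpGs printed above) had levels of 0.134% and 0.197% in WT replicates 1 and 2 and 0.405% and 0.208% in KO replicates 1 and 2. Both KO values were above both WT values, and both rest on fewer than 10 methylated calls. The edgeR adjusted p was 0.694. The Uhrf1 promoter (chr17:56443486-56443785, plus strand, 58 kept cytosines) had 0.314% and 0.297% in WT and 0.258% and 0.129% in KO, with an edgeR adjusted p of 0.782. In the Dnmt1 promoter 32 of the 47 cytosines, and in the Uhrf1 promoter 41 of the 58, had no methylated call in any library.

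Dnmt3a is known to be transcribed from an upstream promoter and from an internal one that gives the shorter Dnmt3a2 protein of ES cells. At the first cluster of starts, 2 overlapping promoters were placed. The one printed above (chr12:3806910-3807209, plus strand, 64 kept cytosines) had 0.206% and 0.195% in WT and 0.229% and 0.0441% in KO, with an edgeR adjusted p of 0.864. The other (chr12:3806730-3807029), which shares bases with it, had 0.280% and 0.180% in WT and 0.112% and 0.157% in KO. The internal start (chr12:3891494-3891793, plus strand) was placed within the gene's interval only. Its placement rests on 19 matched cytosines with at least 5 calls over the 4 libraries together, and its levels on 12 kept cytosines. It had 1.10% and 0.712% in WT, 0.318% in KO replicate 1, and 0 of 283 calls in KO replicate 2, which allows a level of up to 1.06%. The WT values were above the KO values there, but the 4 libraries rest on 283 to 363 calls each and the edgeR adjusted p was 0.609. The Dnmt3b promoter (chr2:153474935-153475234, plus strand, 26 kept cytosines) had 0.121% and 0.432% in WT and 0.187% and 0.263% in KO, with the KO values inside the range of the WT values (edgeR adjusted p = 0.996). The Tet1 promoter (chr10:62350023-62350322, minus strand, 17 kept cytosines) had 0 of 331 calls in WT replicate 1, which allows up to 0.906%, and 0.402% in WT replicate 2. Its KO libraries had 0 of 233 and 0 of 292 calls, which allow up to 1.29% and 1.03% (edgeR adjusted p = 0.807). These limits cover counting error only, since PCR reads were not counted by molecule.

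Windows widened the view from the promoters to the whole of each gene. A window was called CpG-dense if it held at least 20 kept cytosines. The 7 intervals had 15 such windows with 1022 kept cytosines, and 60 other windows. Kept cytosines outside CpG-dense windows, 521 in all, are called the rest of the interval, which is mostly gene body but takes in flanks and, in Tet1, the placed promoter, whose window held fewer than 20 kept cytosines. In the 7 intervals 52 of 75 windows were lower in KO by edgeR and 0 were higher, against 79.9% and 0.00386% of all windows. Of the CpG-dense windows 2 of 15 were lower (23.3% of all CpG-dense windows), and of the others 50 of 60 (91.2% of all such windows). Read by the WT level, of 53 windows with a WT level of at least 20%, 52 were lower, against 99.5% in the genome, and of 22 windows below that level none was called in either direction. A window with a WT level under 10% cannot be called lower, since the minimum difference is out of its reach. This held for all of the 22 but the Zfp57 window at chr17:37146001-37147000, with a WT mean of 10.8%. In the genome 124090 of 155252 windows were lower, and 121156 of these were among the 121800 with a WT level of at least 20%.

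**Figure D1:**
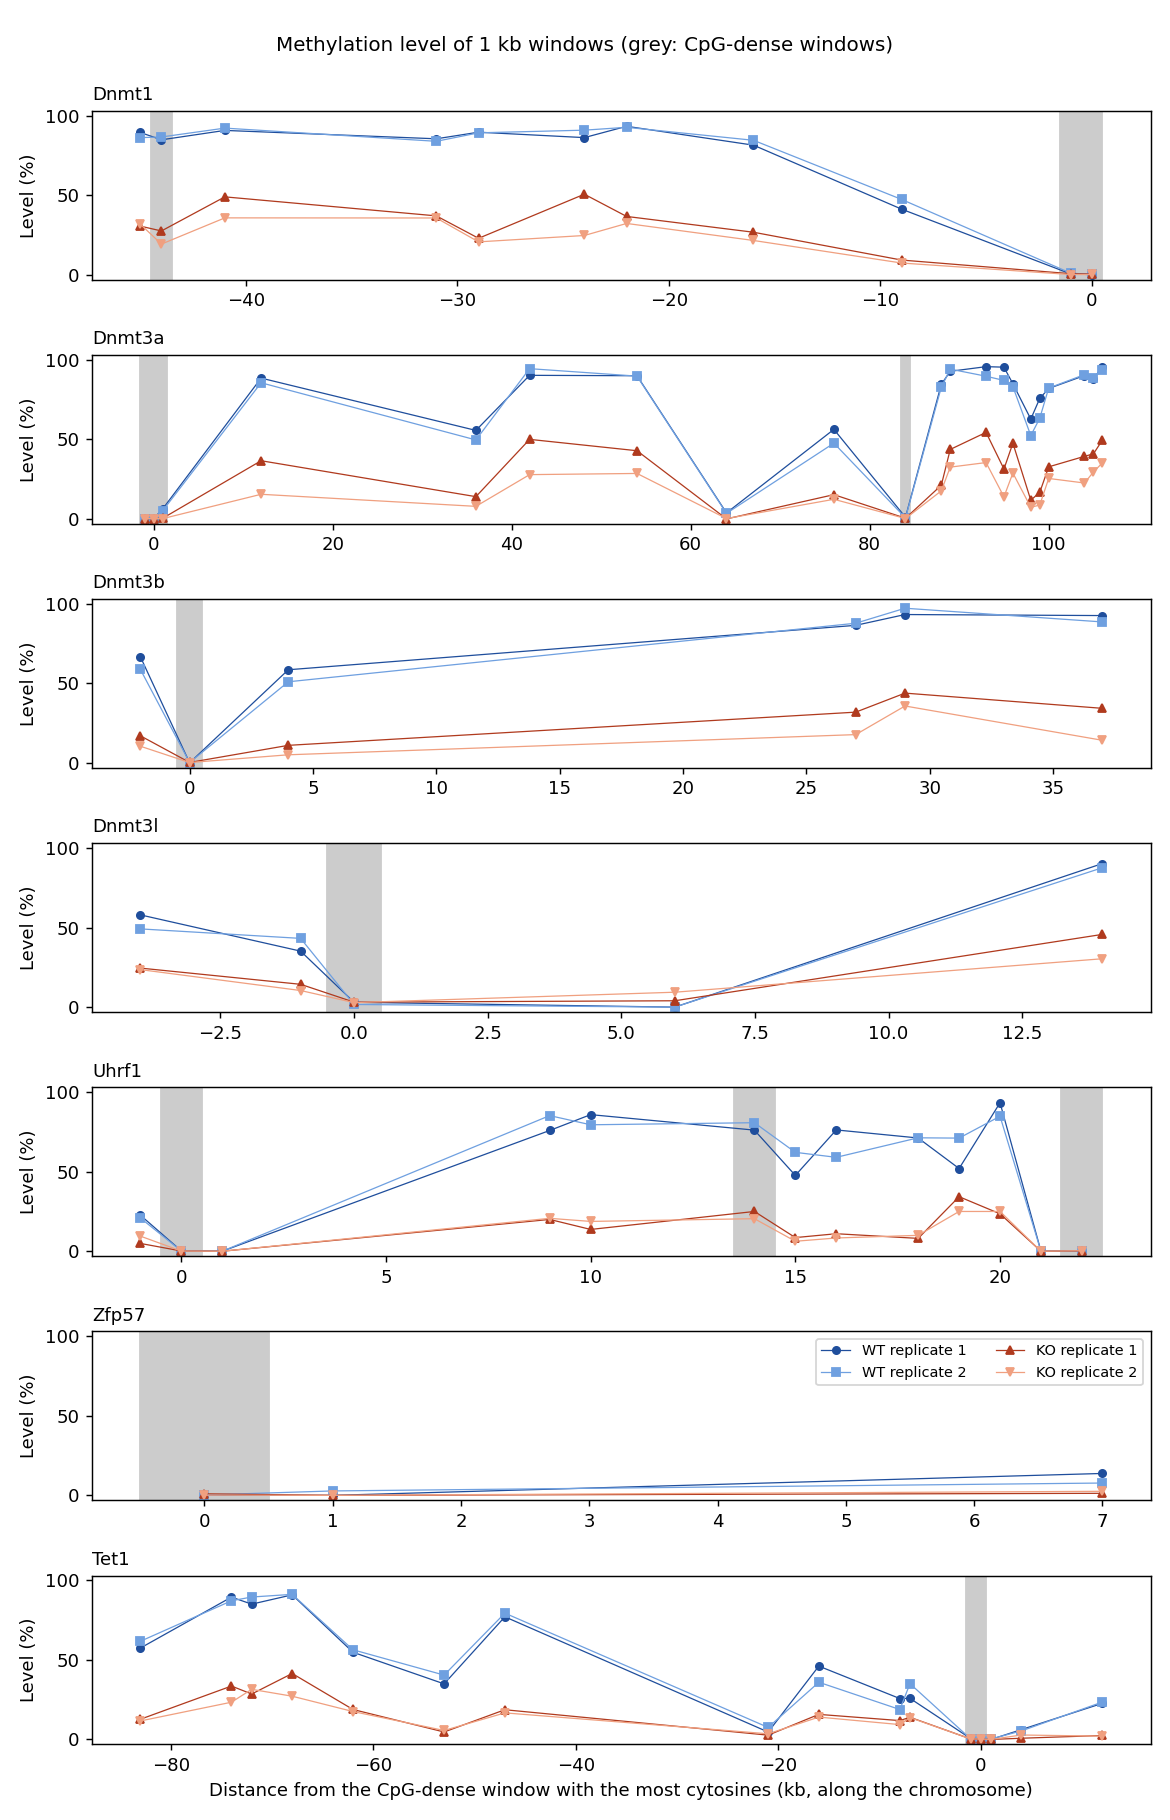
Methylation level of 1 kb windows (y axis, percent) against distance along the chromosome from the CpG-dense window with the most kept cytosines (x axis, kb), 1 panel per gene and 1 line per library, with CpG-dense windows in grey. The WT lines drop to near 0 in the grey windows at the promoters and are high in much of Dnmt1, Dnmt3a and Dnmt3b, and the KO lines lie below them in the windows where WT reaches 20%.

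The CpG-dense windows that hold or adjoin the placed starts of Dnmt1, Uhrf1, Dnmt3b and Tet1 were close to 0 in both genotypes, and none passed the edgeR test. The Dnmt1 window at chr9:20757001-20758000 had 0.125% and 0.227% in WT and 0.470% and 0.192% in KO. Its neighbour at chr9:20756001-20757000 had 0.559% and 1.04% in WT and 0.680% and 0.172% in KO. The Uhrf1 window at chr17:56443001-56444000 had 0.288% and 0.219% in WT and 0.171% and 0.130% in KO. For the de novo enzymes, the Dnmt3b window at chr2:153475001-153476000, with 122 kept cytosines, had 0.152% and 0.317% in WT and 0.353% and 0.307% in KO. The Tet1 window at chr10:62348001-62349000 had 0.537% and 0.287% in WT and 0.297% and 0.312% in KO, and its neighbour at chr10:62349001-62350000 had 0.166% and 0.183% in WT and 0.313% and 0.318% in KO. The groups overlapped in Dnmt3b, in both Dnmt1 windows and in the first Tet1 window. In the Uhrf1 window both KO values lay under both WT values, and in the second Tet1 window both were above, each by a small part of a percentage point.

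Dnmt3a had 4 CpG-dense windows on chr12. The window at 3806001-3807000 had 0.225% and 0.212% in WT and 0.125% and 0.189% in KO, and the next, at 3807001-3808000, had 0.208% and 0.231% in WT and 0.237% and 0.226% in KO. The window at 3891001-3892000, around the internal start, had 1.03% and 0.654% in WT and 0.418% and 0.241% in KO. The window next to the first starts, at 3808001-3809000 with 40 kept cytosines, differed from the others: its levels were 6.25% and 5.15% in WT and 0.389% and 0.177% in KO. The groups did not overlap and the edgeR adjusted p was 9.06e-08, but the difference of means, KO minus WT, was -5.42 points and missed the minimum of 10 points.

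No start of Dnmt3l or Zfp57 was placed, so the distance of their windows from a start was not determined. In the single CpG-dense window of Dnmt3l (chr10:77506001-77507000, 24 kept cytosines) the levels were 3.04% and 1.67% in WT and 3.13% and 2.83% in KO, with overlapping groups. The RefSeq gene table (GRCm38.p6) has the neighbouring gene Aire overlapping the first Dnmt3l start, so cytosines at that end can belong to either gene. The CpG-dense window of Zfp57 (chr17:37139001-37140000, 32 kept cytosines) had 0 of 790 calls in WT replicate 1, which allows up to 0.380%, and 0.242% in WT replicate 2. It had 0.974% in KO replicate 1 and 0.121% in KO replicate 2, so that the higher KO mean came from 1 library, and the edgeR adjusted p was 0.0777.

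In contrast, 2 CpG-dense windows were methylated in WT, and both were lower in KO. They lie in the maintenance genes, away from the placed starts. The Dnmt1 window at chr9:20713001-20714000 had 84.8% and 86.6% in WT and 27.6% and 19.3% in KO (edgeR adjusted p = 4.19e-16). The Uhrf1 window at chr17:56457001-56458000, with 21 kept cytosines, had 76.1% and 80.8% in WT and 25% and 20.5% in KO (edgeR adjusted p = 1.44e-13). A further CpG-dense window at the far end of the Uhrf1 interval (chr17:56465001-56466000, 96 kept cytosines) stayed between 0.191% and 0.330% in all libraries. Kdm4b is the next gene in the RefSeq order there, and which gene that window belongs to was not determined.

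Averaged over cytosines, the CpG-dense part of Dnmt1 therefore had a mean level of 18.7% ± 0.346 in WT and 5.23% ± 1.47 in KO (SD, n = 2 libraries each, as for every mean that follows). Nearly all of this difference came from the methylated window, since with CpG-dense windows of at least 40 cytosines the KO mean minus the WT mean was 0.0886 points. Averages for the CpG-dense part of Dnmt3b, Dnmt3l, Zfp57 and Tet1 were between 0.112% and 2.76% in both genotypes. Of the 1022 cytosines in CpG-dense windows 741 had no methylated call in any library, against 869859 of 1462113 in the genome.

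Outside CpG-dense windows every gene had lower mean levels in both KO libraries than in both WT libraries. An exact permutation test, two-sided, gave p = 0.333 for each gene, which is as low as 4 libraries in 2 groups can give. The gene means are therefore descriptions, and the windows carry the test.

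**Figure D2:**
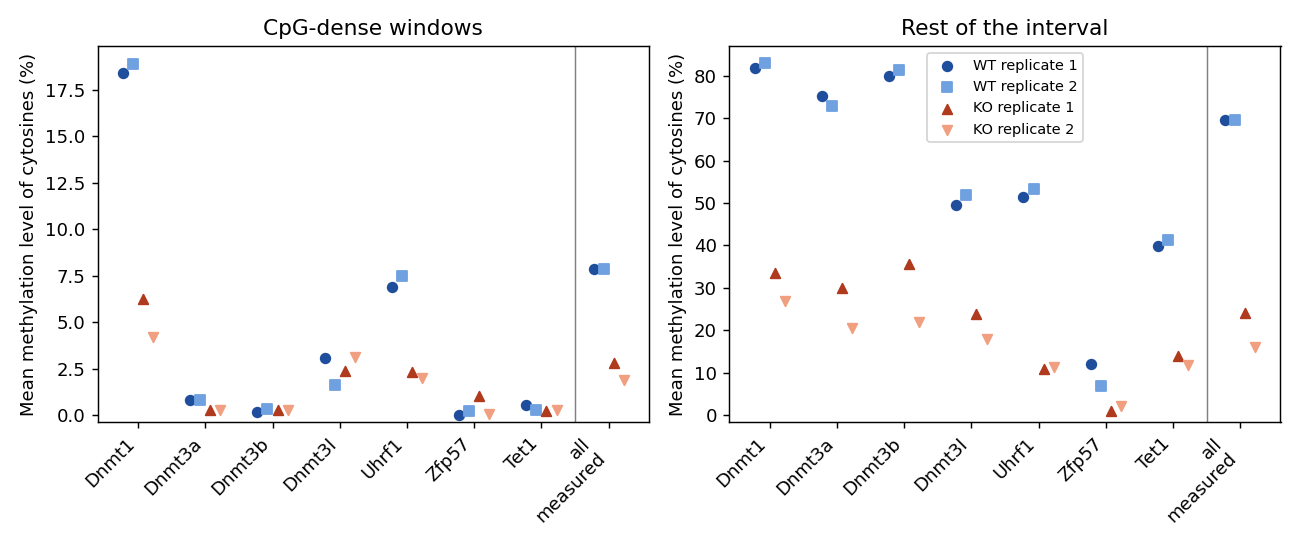
Mean methylation level of cytosines (y axis, percent) in each gene and in all measured cytosines of the genome (x axis), for CpG-dense windows on the left and the rest of the interval on the right, on scales that differ; each point is 1 library. In the rest of the interval the KO points of each gene lie below its WT points, while in CpG-dense windows Dnmt1 and Uhrf1 are the only ones of the 7 genes with a WT mean above 5%.

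Dnmt1 and Dnmt3b were the most methylated genes in WT and kept the highest means in KO. The 91 cytosines of the rest of Dnmt1 averaged 81.9% and 82.9% for WT, and 33.5% and 26.9% for KO, so the KO mean was 36.7% of the WT mean. All 8 windows there were lower in KO by edgeR. In the window of Dnmt1 with the highest KO level (chr9:20716001-20717000) levels were 90.8% and 92.2% in WT and 49% and 35.8% in KO (edgeR adjusted p = 3.63e-11). The largest fall was at chr9:20728001-20729000, where the mean fell by 67.6 points, from 89.6% and 89.2% to 22.9% and 20.7% (edgeR adjusted p = 8.83e-21). The pair had close WT levels, and their KO levels did not overlap.

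Uhrf1, the partner of Dnmt1, had a lower level in both genotypes. The 73 cytosines of the rest of Uhrf1 averaged 51.5% and 53.3% for WT, and 11% and 11.4% for KO, and the KO mean was 21.4% of the WT mean. Of its 10 windows outside CpG-dense windows 8 were lower by edgeR, and the other two, at chr17:56444001-56445000 and chr17:56464001-56465000, had no methylated call in any library, where 34 to 124 calls per library allow a level of up to 2.42 to 8.82%. Its highest KO level was at chr17:56462001-56463000, with 52.0% and 71.1% in WT and 34.3% and 25% in KO on 5 cytosines (edgeR adjusted p = 0.0115). At chr17:56453001-56454000 the mean fell by 66.5 points, the largest fall in Uhrf1, with 85.9% and 79.5% in WT and 13.7% and 18.8% in KO (edgeR adjusted p = 2.64e-11). The window just before the promoter window, at chr17:56442001-56443000, was also lower. It had 22.7% and 21.0% in WT and 4.92% and 9.52% in KO (edgeR adjusted p = 0.00193). The unplaced Uhrf1 start precedes the placed one in GRCm38.p6, and whether this window holds it was not determined. The order of the KO libraries was mixed in Uhrf1. KO replicate 1 was above KO replicate 2 in 4 of 9 Uhrf1 windows with a WT level of at least 20%, in 45 of 53 such windows of the 7 genes, and in 88.0% of such windows of the genome. This difference between genes was not tested.

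Among the de novo enzymes, the rest of Dnmt3a, with 133 cytosines over the longest interval, had means of 75.1% and 72.9% in WT and 29.9% and 20.5% in KO, so that 34.0% of the WT mean was left. Of its 17 windows 16 were lower by edgeR. The remaining one, at chr12:3871001-3872000, had 3.77% and 3.50% in WT, 0 of 507 calls in KO replicate 1, which allows up to 0.592%, and 0.223% in KO replicate 2. Its highest KO level was at chr12:3900001-3901000, with 95.7% and 89.7% in WT and 54.4% and 35.4% in KO (edgeR adjusted p = 1.08e-08). Close by, at chr12:3902001-3903000, the mean fell by 68.6 points, the largest fall in Dnmt3a, from 95.4% and 87.0% to 31.4% and 13.9% (edgeR adjusted p = 2.65e-10).

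The rest of Dnmt3b, with 37 cytosines, had 80.0% and 81.2% in WT and 35.7% and 22.0% in KO, which is 35.8% of the WT mean. All 5 windows were lower by edgeR. The KO libraries differed most from each other in this gene, with a KO SD of 9.68 points against 0.305 in Uhrf1. At chr2:153504001-153505000 levels were 93.3% and 97.3% in WT and 43.9% and 35.8% in KO, the highest KO level of Dnmt3b (edgeR adjusted p = 2.34e-08). At chr2:153512001-153513000 they were 92.7% and 88.7% in WT and 34.4% and 14.3% in KO, so the mean fell by 66.4 points, the largest fall in Dnmt3b (edgeR adjusted p = 7.52e-11).

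The cofactor Dnmt3l had 32 cytosines outside its CpG-dense window, with means of 49.6% and 51.8% in WT and 23.8% and 18.0% in KO, or 41.3% of the WT mean left. The window at chr10:77520001-77521000 had both its highest KO level and its largest fall, with 90.3% and 87.6% in WT and 45.7% and 30.4% in KO (edgeR adjusted p = 4.58e-12). Of 4 windows 3 were lower. The other, at chr10:77512001-77513000, had no methylated call in WT (0 of 46 and 0 of 32 calls, which allow up to 6.52% and 9.38%), 1 of 25 in KO replicate 1 and 3 of 32 in KO replicate 2. With no minimum difference this was the single window of the 7 genes that edgeR called higher in KO (adjusted p = 0.0321), on 4 methylated calls in all.

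Zfp57 had the lowest WT level of the 7 genes outside CpG-dense windows. Its 17 cytosines outside the CpG-dense window had means of 12.1% and 6.96% in WT and 1.06% and 2.11% in KO, and none reached a level of 50% in any library. Most of them, 14, lie in 1 window at chr17:37146001-37147000, with 13.8% and 7.74% in WT and 1.29% and 2.55% in KO. The edgeR adjusted p there was 4.70e-05, but the difference of means, KO minus WT, was -8.84 points and missed the minimum of 10 points, so Zfp57 had no called window.

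Tet1 was mixed along its length. The 138 cytosines of its rest averaged 39.9% and 41.4% for WT, and 13.9% and 11.9% for KO, which is 31.7% of the WT mean. No methylated call was seen in any library at 22 of them, against 55223 of 1006053 cytosines outside CpG-dense windows in the genome. The placed Tet1 promoter gave 17 of the 138, of which 16 had no methylated call. Without these 17 the other 121 averaged 45.6% and 47.1% for WT, and 15.8% and 13.6% for KO, or 31.8% of the WT mean, a value computed after the data were seen. Of 14 windows 10 were lower. Its highest KO level was at chr10:62281001-62282000, with 90.9% and 91.2% in WT and 41.5% and 27.2% in KO (edgeR adjusted p = 6.65e-10), and at chr10:62302001-62303000 the mean fell by 60.6 points, its largest fall, from 77.1% and 79.4% to 18.7% and 16.7% (edgeR adjusted p = 8.76e-14). The window at chr10:62341001-62342000 was the only one of the 53 with a WT level of at least 20% that was not called. It had 25.7% and 18.8% in WT and 11.9% and 9.35% in KO, with groups that did not overlap (edgeR adjusted p = 0.0832). The window at chr10:62328001-62329000, with 19 cytosines, was low in both genotypes, at 4.66% and 7.56% in WT and 2.71% and 3.56% in KO.

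Ordered by the WT mean outside CpG-dense windows, the genes ran Dnmt1, Dnmt3b, Dnmt3a, Uhrf1, Dnmt3l, Tet1 and Zfp57. The library values of Uhrf1 and Dnmt3l overlapped in WT, and those of the other neighbours in this order did not. In KO the values of Dnmt1, Dnmt3b and Dnmt3a overlapped, Dnmt3l overlapped with Dnmt3b and Dnmt3a, and Tet1, Uhrf1 and Zfp57 were lower, each without overlap with its neighbour.

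**Figure D3:**
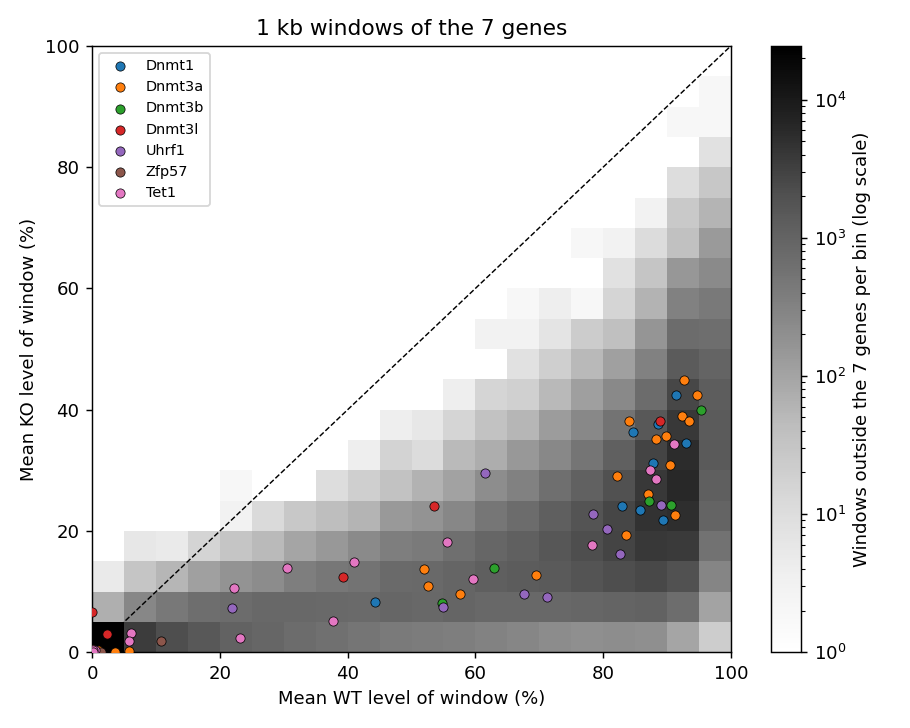
Mean KO level against mean WT level of 1 kb windows (both axes in percent), with the 75 windows of the 7 genes as points coloured by gene, all other windows as grey bins (number per bin, log scale) and equal levels as a dashed line. All 53 points with a WT level of at least 20% lie below the dashed line, and no window of Zfp57 is among them.

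Fewer single cytosines had a high level in KO. Of the 521 cytosines outside CpG-dense windows, 335 and 334 had a level of at least 50% in WT replicates 1 and 2, against 77 and 27 in KO replicates 1 and 2. In KO, 24 and 7 of these were in Dnmt1, 26 and 12 in Dnmt3a, 11 and 2 in Dnmt3b, 5 and 1 in Dnmt3l, 9 and 4 in Tet1, 2 and 1 in Uhrf1, and none in Zfp57. In the genome 76.1% of such cytosines reached 50% in each WT library, against 64.3% and 64.1% here, and 14.4% and 5.39% did in KO, against 14.8% and 5.18% here. At 421 of the 521, each KO library had a lower level than either WT library, against 87.3% of such cytosines in the genome. By window this held for 55 of 60, against 96.3% of such windows in the genome.

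Pooled over the 7 genes, cytosines farther from a CpG-dense window had higher levels in both genotypes, an order that Dnmt1, Dnmt3a and Dnmt3l did not follow in WT, and Dnmt1 and Dnmt3b did not follow in KO. Within 2 kb of a CpG-dense window the 88 cytosines of the rest had a mean of 34.8% ± 2.04 in WT and 9.65% ± 1.09 in KO. At 2 to 10 kb the 151 cytosines had 55.7% ± 0.348 and 18.6% ± 2.18, and beyond 10 kb the 282 cytosines had 71.2% ± 0.411 and 24.1% ± 5.45. Over the whole genome these bins had 39.0%, 67.3% and 76.3% in WT and 11.4%, 19.1% and 22.0% in KO. In Tet1 the order held, with 0.347%, 22.7% and 54.0% in WT, where 17 of the 18 nearest cytosines are those of its promoter. In Dnmt1 the WT means were 88.7%, 71.0% and 87.9%, and in Dnmt3l they were 39.2%, 27.4% and 88.8%, lowest in the middle bin. Dnmt3a had no cytosine in the nearest bin, and its WT means were 81.7% and then 71.8%. Dnmt3b had 62.8%, 63.3% and 90.1% in WT but 30.0%, 17.3% and 31.9% in KO. Uhrf1, with no cytosine beyond 10 kb, had 36.6% ± 1.87 within 2 kb and 73.8% ± 0.542 at 2 to 10 kb in WT, and 6.44% ± 0.00448 and 17.7% ± 0.712 in KO. The pooled order thus mixes genes of different levels.

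**Figure D4:**
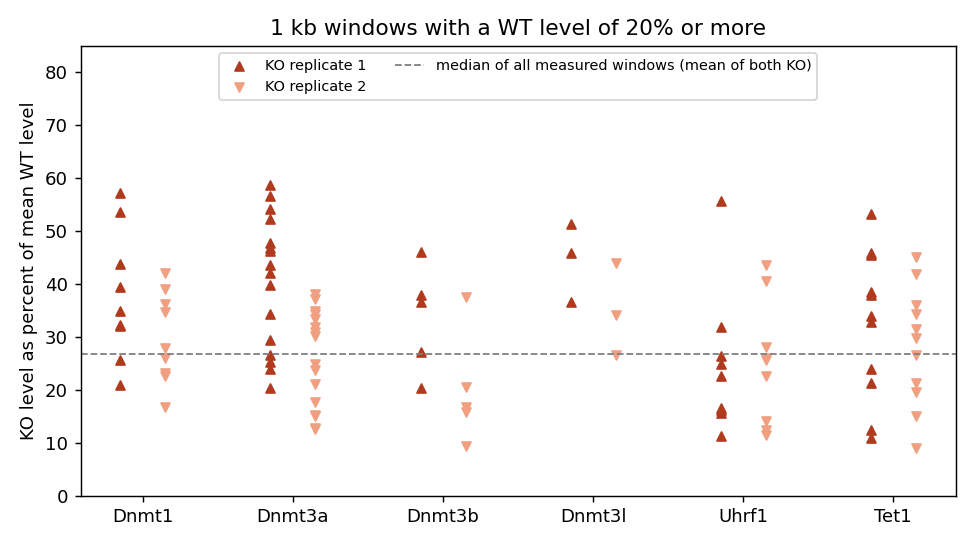
KO level as a percent of the mean WT level (y axis) in the 53 windows with a WT level of at least 20%, by gene (x axis; Zfp57 has none), with 1 point per window and KO library and the median of all such windows of the genome, 26.8%, as a dashed line. The points of KO replicate 1 reach higher than those of KO replicate 2 in each gene.

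Set beside the genome, the rest of the 7 genes was less methylated in WT and close to the genome in KO. Its means were 60.4% and 60.7% in WT and 22.7% and 17.4% in KO, against 69.6% in both WT libraries and 24% and 16.1% in KO. The KO mean was 33.2% of the WT mean in the 7 genes together and 28.8% in the genome. By window, over the 53 with a WT level of at least 20%, the KO mean was 9.91 to 48.4% of the WT mean with a median of 31.6%, against a median of 26.8% in the genome. This difference was not tested. To ask whether windows lost more or less than the shift shared by the libraries, logit levels were centred on each library's median over windows between 10 and 90% and tested with limma. Of the 53 member windows with a WT level of at least 20%, 12 were above the shift (13.2% of such windows in the genome), 0 were below it (5.91%) and 41 were not called. The 12 were 4 in Tet1, 3 in Dnmt3a, 2 in Dnmt3l, 2 in Uhrf1, 1 in Dnmt1 and 0 in Dnmt3b. They had WT levels of 21.8 to 84.0%, and the background depends on that level. Of the windows with a WT level of 20 to 80%, 11 of 23 were above the shift (33.2% in the genome), and of those at 80% or more, 1 of 30 (2.13%). This split was chosen after the values were seen, and the shares were not tested against the background.

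The depth of the 7 intervals was compared between the genotypes. The ratio of KO to WT shares of autosomal calls was 1.01 in Dnmt1, 0.989 in Dnmt3a, 0.905 in Dnmt3b, 1.10 in Dnmt3l, 1.00 in Uhrf1, 1.04 in Zfp57 and 0.978 in Tet1. Both KO shares were under both WT shares in Dnmt3b and over them in Dnmt3l, and the groups overlapped in the other genes. These differences were not tested.

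Other genes that write, read, remove or protect CpG methylation were read at their promoters as a list of 28 genes, chosen by function. The promoter table held 21 of them, and 16 promoters of 15 genes could be placed: Tet2, Tet3, Tdg, Uhrf2, Hells, Mbd4, Zbtb33, Ehmt1, Ehmt2 with 2 starts, Smchd1, Usp7, Kdm1b, Gadd45a, Gadd45b and Naa15, a partner subunit of Naa10. None of the 16 was lower or higher in KO by edgeR, and none by limma, with 1 at an unadjusted p under 0.05 by each. Their WT levels were also too low for a fall of 10 points, and with no minimum difference edgeR still called none. Their median was 0.245% for WT and 0.205% for KO, against 0.275% and 0.225% over all placed promoters. The highest WT level was 0.459%, in Tet3, a dioxygenase related to Tet1. Over 1 kb on either side of the start, where 3.91% of promoters were lower in KO, again none passed. Uhrf2, a relative of Uhrf1, had 2.63% and 2.78% in WT and 0.471% and 0.424% in KO there (edgeR adjusted p = 1.33e-05), again with less than the minimum difference of 10 points. It is named after its values were seen. The promoter of Naa10 itself could not be placed, so the targeted gene was not checked.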

How the data were processed

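RRBS was measured in 4 libraries of mouse ES cells, 2 WT and 2 Naa10-KO, grouped by the genotype label and the sample titles. Per the labels' protocols, DNA was cut with MspI, filled in, ligated to methylated adaptors, bisulfite converted, amplified and size selected. The authors deposited, per library, the methylation of each listed cytosine as a percent, with the counts of methylated and unmethylated calls, which are whole numbers and not normalised. The submitters' processing notes name Trim Galore, Bismark 0.10.1 and the build mm9 without saying what each was used for. Removal of PCR duplicates and of filled-in bases is not given in the sources used here.

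Cytosines of chromosomes 1 to 19, X and Y with at least 5 calls in every library were kept. Counts were summed in 1 kb windows with at least 3 kept cytosines and fitted with edgeR 4.0.16 in R 4.3.3 (quasi-likelihood), where the model held library terms, the methylated state and its interaction with genotype. P-values were adjusted by the Benjamini-Hochberg method over all 155252 windows, or over all 8058 placed promoters. Calls were made at an adjusted p under 0.05 together with a change of 10 points or more. Means per library were compared with an exact permutation test (scipy 1.17.1). The test was tried on simulated data, drawn with the spread of the WT pair and with few changed windows. The real KO libraries differ more from each other and most windows change, so that trial does not give the error rate here.

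Coordinates are 1-based on mm9. No mm9 annotation was used. A promoter was placed where at least 10 kept cytosines matched its CpGs and the next best place of the chromosome had at most 50% of that number. The internal Dnmt3a start was placed in the gene's interval only, with every listed cytosine of at least 5 calls over the 4 libraries together. Of the 8058, 8055 had an offset to GRCm38.p6 like that of a placed neighbour.

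All 7 genes and every CpG-dense window are named, with, per gene, the other window of highest KO level and of largest fall, and any uncalled window with a WT level of at least 20%. Windows named beside these were chosen after their values were seen. The genes, lists and rules were chosen with earlier results of these data known. The alternatives were other depth minimums, window sizes, minimum differences and density limits, limma 3.58.1 on logit levels with 0.5 added, centring, pooled calls, the deepest cytosines left out, each library left out, and the replicate number as a block.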

Additional observations from a re-analysis of the deposited data

How the results depend on the processing

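Of 185 values recomputed under other settings, 168 kept their direction and, for counts, stayed within 1.5 times. For gene means this speaks of direction only, since their permutation test cannot pass a threshold: 20 of 47 CpG-dense differences and 4 of 64 differences of the rest that kept their direction moved by over 1.5 times. Many of the counts were 0 and stayed 0, which says little of stability. Every promoter count did so, and with the 10-point minimum lower calls were out of reach of these promoters. Counts of windows higher in KO did so except with no minimum difference and with centring. The number of windows of the 7 genes lower in KO, 52, was 27 with a minimum of 20 calls and 19 with at least 10 cytosines per window, since fewer windows were tested (43 and 36). Centred on the shift shared by each library it was 0, with 30 of 75 windows above the shift, 18 of them with a WT level below 20%. In the genome 4.65% of all windows were below the shift and 27.8% above it. Of CpG-dense windows, most of them near 0 in WT, 12 of 15 were above it here and 19928 of 25730 in the genome. With no minimum difference 1 window was higher. Leaving out each library in turn gave 48 to 53 lower windows and 0 higher ones. With the replicate number as a block 52 windows were lower. The correlation of same-numbered libraries' deviations was -0.00443 over 121800 windows. With 2 libraries per genotype this cannot tell whether same-numbered libraries were grown or prepared together. Under the block no window of the 7 genes changed its call at the 10-point minimum. Nor did any placed promoter of these genes or of the other genes read at their promoters. In the genome lower windows went from 124090 to 123935, and lower promoters from 3.04% to 2.84%. The Dnmt3l window called higher with no minimum difference lost that call, with an edgeR adjusted p of 0.0551 under the block.

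The difference of KO and WT in CpG-dense windows changed sign in 5 genes, in each to a value close to 0 except with density taken from 10 cytosines. For Dnmt1 it was -13.4 points, 0.109 with a minimum of 20 calls and 0.0886 with density from 40 cytosines, since both drop the methylated window. For Dnmt3b it was 0.0351 points, with -0.0309 to 0.101 when each library was left out (-0.0309 without WT replicate 1). For Dnmt3l it was 0.409, with -17.7 for density from 10 cytosines and -0.314 to 1.13 when each library was left out (-0.314 without WT replicate 2). For Zfp57 it was 0.457, with -2.54 for density from 10 cytosines and -0.0169 to 0.930 when each library was left out (-0.0169 without KO replicate 1). For Tet1 it was -0.149, with 0.166 and 0.239 for a minimum of 10 and 20 calls, 0.0919 for density from 40, 0.0649 for pooled calls and -0.303 to 0.00458 when each library was left out (0.00458 without WT replicate 1). Among those that kept their sign, Uhrf1 went from -5.01 to -0.112 with a minimum of 20 calls and -0.0710 with density from 40, and Dnmt3a from -0.571 to -0.0249 with a minimum of 10 calls and -6.55 with density from 10. With density from 40 and from 10 cytosines the rest of Dnmt3l went from -29.8 to -16.8 and -13.2, and that of Zfp57 from -7.95 to -2.46 and -1.19, since cytosines move between the classes. Other causes were not tested. Zfp57 with density from 40 cytosines, and Dnmt3l there and with a minimum of 10 or 20 calls, had no CpG-dense window and gave no value. Where a library had no methylated call, depth allowed a level of up to 0.906 to 1.29% at the Tet1 and internal Dnmt3a promoters, and of up to 12% in windows with few calls.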
